A study of Mus musculus with 18 samples.

Results

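The genes of the respiratory chain and of ATP synthase were followed across 18 pools of microdissected thick ascending limb (TAL) of mouse kidney. Members were taken by gene name: every name that starts with Ndufa, Ndufb, Ndufc, Ndufs, Ndufv, Uqcr, Cox4 to Cox8, Atp5, mt-Nd, mt-Co, mt-Atp or mt-Cyt, and Sdha, Sdhb, Sdhc, Sdhd and Cyc1. Names with -ps and names that start with Ndufaf (assembly factors) were left out. The rule used no measured value and found 104 of 55401 genes, of which 91 are nuclear and 13 mitochondrial. The nuclear members belong to complex I (39 genes), II (4), III (9), IV (21, with Ndufa4 and Ndufa4l2) and V (18). The mitochondrial members belong to complex I (7 genes), III (1), IV (3) and V (2).

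Each pool came from a distinct adult male mouse, labelled as strain C57BL/6J, and held 150 to 200 hand-dissected tubules, from the cortex (CTAL) or from the outer medulla, in its inner stripe (MTAL). The WT groups, 5 pools of WT MTAL and 5 of WT CTAL, are Cldn10 fl/fl littermates with no Cre. The cKO groups, 3 pools of cKO MTAL and 5 of cKO CTAL, are Cldn10 fl/fl; Ksp-Cre, in which the Ksp-cadherin promoter drives Cre in the distal nephron. All groups thus carry the floxed alleles, and neither Cre alone nor unfloxed alleles were measured. Cldn10 encodes claudin-10, a protein of the tight junction that carries paracellular sodium transport in this segment. The study asked how gene expression of both segments changes when it is missing.

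Oxidative phosphorylation makes ATP in the inner mitochondrial membrane. Complexes I and II feed electrons from NADH and succinate to ubiquinone, complex III passes them to cytochrome c, complex IV passes them to oxygen, and complex V uses the proton gradient to make ATP. Complex II is wholly encoded in the nucleus, whereas the others combine nuclear subunits with subunits of the mitochondrial genome. Mitochondrial DNA is transcribed as long precursors, one from each strand, which are cut into the single mRNAs. The TAL is rich in mitochondria because its salt reabsorption is driven by the sodium pump.

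The mitochondrial genes lie so close that a read may belong to a pair of them. The start of mt-Atp6 lies inside mt-Atp8, and both are translated from the same mRNA. In the mouse genome build GRCm38 (mm10) they have 43 bases in common, which are shown because both genes were among those that fell in cKO MTAL. They lie at chrM:7927-7969 on the plus strand, and the capitals mark the start codon of mt-Atp6 and the stop codon of mt-Atp8.

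mt-Atp8 and mt-Atp6: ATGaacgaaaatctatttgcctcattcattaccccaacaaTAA

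In the same way, mt-Nd4l and mt-Nd4 share 7 bases, at chrM:10167-10173. mt-Nd5 and mt-Nd6 overlap on opposite strands, and mt-Nd6 is the only protein gene on the minus strand. The counting is not stated to use the strand, so that reads within this overlap cannot be assigned to mt-Nd5 or mt-Nd6 with certainty.

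The nuclear members have promoters of several kinds. A promoter of 300 bases (250 before the start site and 50 after) was at hand from RefSeq (GRCm38.p6) for 69 of the 91. These were searched on both strands for 3 motifs, namely GCGC and GCGC with any 2 bases between them, CCGGAAG and AAGATGGC, which the factors NRF1, ETS (the family of GABPA) and YY1 are known to bind. Each motif was searched on its own, so that matches of different motifs may overlap. The NRF1 motif stood in 19 of the 69 (27.5%), against 7.0% of all 27025 genes with a promoter and 15.8% of the 9149 that were expressed in these pools at 3 CPM (counts scaled to library size) or more in 5 pools. CCGGAAG stood in 24.6%, against 9.93% and 21.1%. AAGATGGC stood in 14.5%, against 3.19% and 5.59%. At least 1 of the 3 stood in 58.0% of the members, against 17.9% of all genes and 36.8% of the expressed ones. By complex, AAGATGGC was found in 7 of 32 promoters of complex I, in 3 of 15 of complex V and in none of the 22 of the other complexes together. These shares are descriptions, since promoters differ in their content of C and G, with a median of 14 CG pairs in the members and 6 in all genes.

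The 250 bases before the start site are shown for Cox7a1, the nuclear member that fell in cKO MTAL, for Cox7a2, the other form of the same subunit, and for Cox6a1 and Sdha, which hold several matches. Each is written along the strand of its gene, and capitals mark matches, the NRF1 motif in Cox6a1 and Sdha and CTTCCGG, the reverse complement of CCGGAAG, at the end of Cox6a1. Cox7a1 (chr7:30183921-30184170, plus strand) and Cox7a2 (chr9:79759854-79760103, minus strand) hold none of the 3. Cox6a1 lies at chr5:115348959-115349208 and Sdha at chr13:74350241-74350490, both on the minus strand.

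Cox7a1: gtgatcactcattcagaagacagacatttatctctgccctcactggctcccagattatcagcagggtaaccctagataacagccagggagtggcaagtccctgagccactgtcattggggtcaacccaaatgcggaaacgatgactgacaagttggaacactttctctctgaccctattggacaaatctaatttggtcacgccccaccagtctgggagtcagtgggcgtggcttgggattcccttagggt
Cox7a2: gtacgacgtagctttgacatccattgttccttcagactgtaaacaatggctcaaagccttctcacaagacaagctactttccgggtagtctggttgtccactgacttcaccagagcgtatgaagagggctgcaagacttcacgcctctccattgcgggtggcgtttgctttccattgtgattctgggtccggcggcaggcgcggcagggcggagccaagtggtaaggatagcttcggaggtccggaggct
Cox6a1: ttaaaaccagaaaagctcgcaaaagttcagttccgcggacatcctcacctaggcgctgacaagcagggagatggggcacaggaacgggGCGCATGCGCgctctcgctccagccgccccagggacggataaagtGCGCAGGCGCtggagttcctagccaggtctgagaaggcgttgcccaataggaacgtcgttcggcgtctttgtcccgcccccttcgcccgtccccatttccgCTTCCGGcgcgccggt
Sdha: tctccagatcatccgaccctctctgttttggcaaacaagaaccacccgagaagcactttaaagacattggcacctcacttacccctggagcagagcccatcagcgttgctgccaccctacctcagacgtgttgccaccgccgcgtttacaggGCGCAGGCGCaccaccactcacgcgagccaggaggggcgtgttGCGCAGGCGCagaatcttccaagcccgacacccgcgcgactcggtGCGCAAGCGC

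Total counts ranged from 10824299 to 62339939 per pool. Mean Cldn10 in WT MTAL was 756 CPM (SD 59.8, n = 5), beside 215 CPM (SD 66.0, n = 3) in cKO MTAL. For WT CTAL it was 501 CPM (SD 83.6, n = 5), beside 173 CPM (SD 10.8, n = 5) in cKO CTAL. The authors kept only cKO pools whose Cldn10 lay significantly below that of WT, so that these levels are no independent check of the genotype. Slc12a1, the sodium-potassium-chloride cotransporter that defines the TAL, stood between 11416 and 16187 CPM in all pools and passed the test in no comparison. WT CTAL 1 is labelled Cldn10 KO in one field and WT in its pool name, and was used as WT. Xist, which male cells do not express, stood at 6.50 to 8.91 CPM in 7 pools (WT MTAL 11, 15, 17 and 19, WT CTAL 3 and 22, cKO CTAL 2) and at 0.234 to 0.736 CPM in the other 11. The Y-linked genes Ddx3y (23.6 to 39.4 CPM), Uty (14.4 to 27.0), Kdm5d (15.6 to 31.9) and Eif2s3y (20.9 to 38.5) were expressed in all pools. The source of the Xist counts was not tested. All genes that passed a filter on low counts entered a quasi-likelihood test of edgeR, with Benjamini-Hochberg adjustment, and are called at an adjusted p under 0.05. Fold changes are of the first group named over the second.

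The 13 mitochondrial genes made up 22.6% to 41.2% of all TPM (the transcript measure that corrects for length) and 9.69% to 23.2% of the counts of a pool. The 91 nuclear members made up 3.37% to 5.43% of TPM and 2.05% to 2.73% of the counts. In TPM the mitochondrial sum was 363486 ± 38899 in WT MTAL, 268162 ± 31911 in cKO MTAL, 331564 ± 15422 in WT CTAL and 287647 ± 42969 in cKO CTAL (SD, n as above). The nuclear sum was 40573 ± 5253, 42781 ± 3720, 42935 ± 1846 and 44378 ± 5997 in the same order. The mean nuclear sums of the 4 groups thus differed by less than the largest of their SDs, whereas the mean mitochondrial sums of the WT groups lay above those of the cKO groups.

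**Figure D1:**
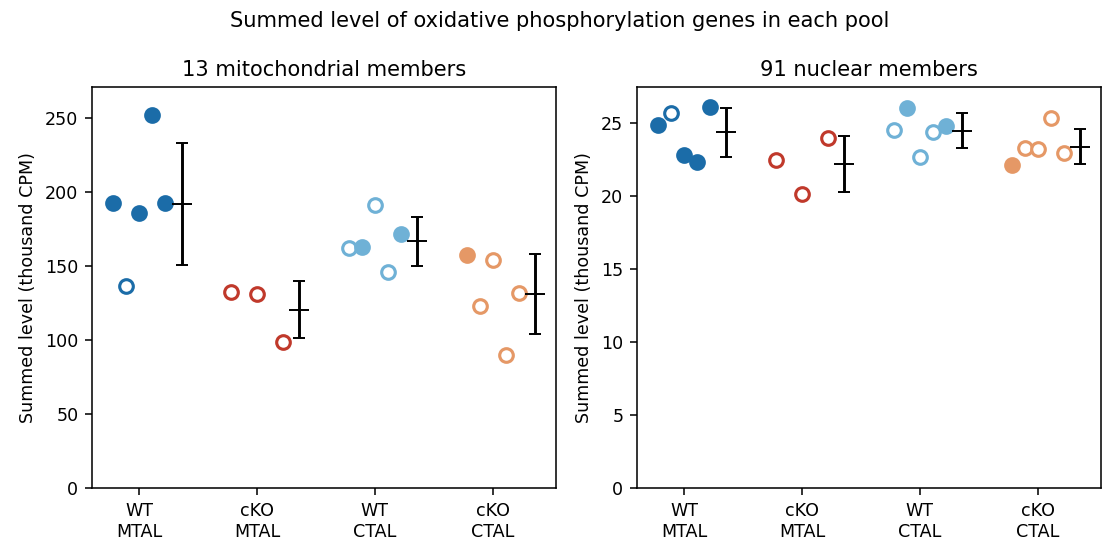
Summed CPM, in units of 1000, of the 13 mitochondrial members (left) and the 91 nuclear members (right) in each pool, with the mean and SD of each group in black. Filled points are pools with Xist of at least 1 CPM. The 3 cKO MTAL pools (98827 to 132456 CPM) lie below all WT MTAL pools (136490 to 252353 CPM) on the left, and the groups overlap on the right.

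Since levels per length can be compared between genes, the members were ranked by their mean TPM in WT MTAL. The highest was mt-Atp8 at 93206 TPM, a gene of 204 bases, followed by mt-Co1, the catalytic core of complex IV, at 43294 TPM. mt-Atp6 stood at 35469 TPM and mt-Cytb, the only mitochondrial gene of complex III, at 34382 TPM. Within complex I, mt-Nd1 was the highest at 28308 TPM and mt-Nd6 the lowest at 498 TPM. All 91 nuclear members stood below the other 12 mitochondrial genes, and 29 of them stood above mt-Nd6. The highest of each complex was Atp5b (4131 TPM), the catalytic beta subunit of complex V, then Cox6b1 (1589 TPM) of complex IV, Uqcrh (964 TPM), the hinge protein of complex III, Ndufb9 (819 TPM), an accessory subunit of complex I, and Sdha (532 TPM), the flavoprotein of complex II. The median over all nuclear members of a complex was 245 TPM in complex I, 323 in II, 426 in III, 331 in IV and 588 in V, where that of complex IV includes 6 forms that were hardly expressed.

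Some nuclear members were hardly expressed. Cox7b2 and Cox8c had no count in any pool. Cox6a2 and Cox8b, the forms of heart and skeletal muscle, did not exceed 0.102 and 0.0389 CPM, and Ndufa11b did not exceed 0.0655 CPM. Cox4i2, the lung form of subunit 4, reached 0.493 CPM and Ndufa4l2, a gene that responds to low oxygen, 1.06 CPM. With Ndufs6b (1.2 to 3.45 CPM) and a second gene entry named Atp5o (at most 1.01 CPM), these 9 did not pass the filter, so that 82 nuclear members were tested, or 81 in cKO MTAL against WT MTAL, where Cox6b2 did not pass either.

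The first question was what the loss of claudin-10 changed in the medullary segment. Of the 13 mitochondrial genes, 7 fell, none rose, and all 13 had a negative fold change. Of 81 nuclear members 1 fell, Cox7a1, and none rose. Among all 12060 genes tested 7.01% were called, 2.57% lower and 4.44% higher. The median log2 fold change was -0.63 over the mitochondrial members, -0.06 over the nuclear ones and 0.00 over all genes tested.

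By complex, 3 of the 7 mitochondrial genes of complex I fell (mt-Nd1, mt-Nd2, mt-Nd3), the single gene of complex III (mt-Cytb), 1 of 3 of complex IV (mt-Co3) and both of complex V (mt-Atp6, mt-Atp8). mt-Nd2, a proton-pumping subunit of the membrane arm, stood at 14878, 9625, 13478, 17715 and 15658 CPM in the WT MTAL pools (11, 13, 15, 17 and 19, and so in all lists below). It stood at 8623, 8519 and 5898 CPM in the cKO MTAL pools (16, 18 and 20). All 3 cKO pools thus lay below all WT pools, and mt-Nd2 was 1.79-fold lower (log2 fold change -0.84, SE 0.18, adjusted p = 0.0094).

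mt-Nd3, another membrane subunit, stood at 1965, 681, 1071, 649 and 1050 CPM in WT MTAL. In cKO MTAL it stood at 578, 423 and 365 CPM, again below every WT pool, and its fold change was the largest of the mitochondrial genes (log2 -1.19, SE 0.29, adjusted p = 0.0223). With the likelihood ratio test of DESeq2, which called 11.3% of all genes, mt-Nd3 did not pass (adjusted p = 0.0768) while mt-Co1 did (adjusted p = 0.0258). WT MTAL 11 stood far above the other WT MTAL pools for mt-Nd3. mt-Nd1 was measured at 18158, 11045, 17112, 24220 and 18185 CPM in WT MTAL and at 11896, 10799 and 8138 CPM in cKO MTAL. Here cKO MTAL 16 lay above WT MTAL 13, and the log2 fold change was -0.73 (SE 0.19, adjusted p = 0.0328).

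mt-Cytb, the cytochrome b of complex III, stood at 26594, 20282, 28003, 38160 and 27438 CPM in WT MTAL and at 18766, 18610 and 15368 CPM in cKO MTAL (log2 -0.62, SE 0.16, adjusted p = 0.0296). mt-Co3, a structural subunit of complex IV, stood at 16049, 11518, 13972, 16267 and 17299 CPM in WT MTAL. In cKO MTAL it stood at 10644, 9310 and 6278 CPM (log2 -0.73, SE 0.17, adjusted p = 0.0163). For both genes the groups did not overlap, and the lowest WT pool was WT MTAL 13.

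The genes of complex V were mt-Atp6, which forms the proton channel, and mt-Atp8, which helps to assemble it. mt-Atp6 stood at 13739, 10513, 13587, 17770 and 15033 CPM in WT MTAL and at 10326, 8516 and 7476 CPM in cKO MTAL (log2 -0.63, SE 0.16, adjusted p = 0.0228). mt-Atp8 stood at 4792, 4109, 5159, 7623 and 6513 CPM against 3416, 3483 and 2729 CPM (log2 -0.76, SE 0.17, adjusted p = 0.0150). Neither gene overlapped between the groups. In all, 6 of 13 mitochondrial genes were lower in every cKO MTAL pool than in any WT MTAL pool, as were 9.41% of all genes tested.

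The remaining 6 mitochondrial genes did not pass the test. Their log2 fold changes were -0.46 (mt-Co1), -0.50 (mt-Co2), -0.51 (mt-Nd4l), -0.57 (mt-Nd6), -0.62 (mt-Nd5) and -0.66 (mt-Nd4), with adjusted p between 0.0535 and 0.136. At an unadjusted p under 0.05 all 13 would be called, as would 23.6% of all genes. The ribosomal RNAs of the mitochondrial genome, mt-Rnr1 and mt-Rnr2, which are poorly captured by poly-A selection, had log2 fold changes of 0.22 and 0.31 (adjusted p = 0.539 and 0.419).

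**Figure D2:**
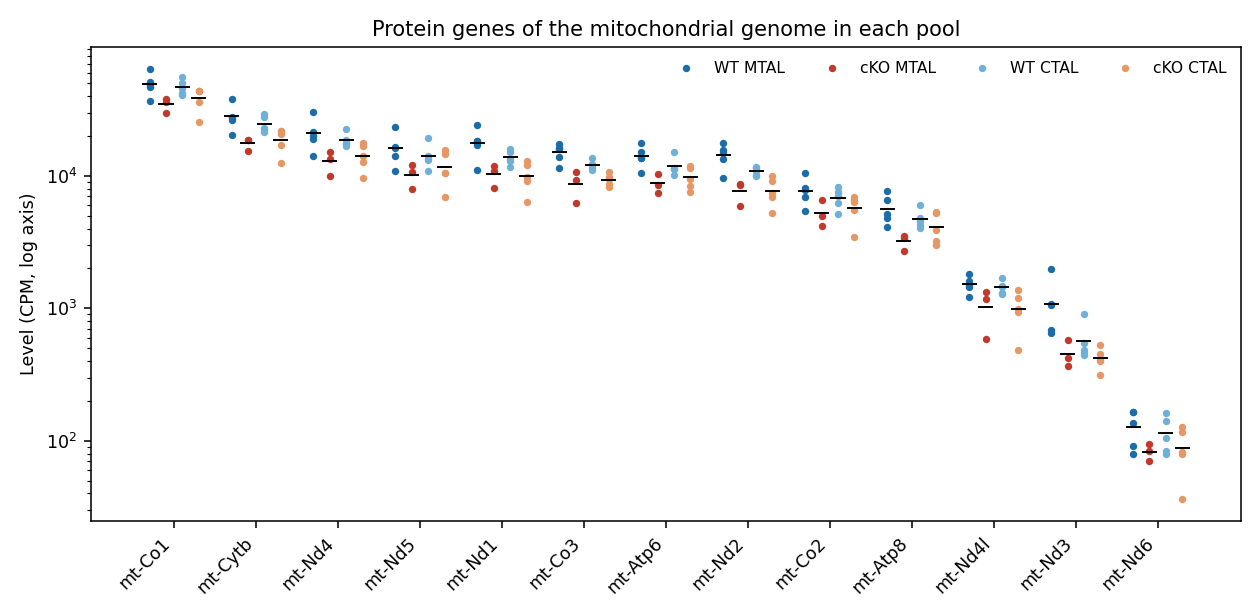
Level of each mitochondrial protein gene (CPM, log axis) in each pool, coloured by group, with bars at the group means. WT MTAL has the highest mean for 13 of 13 genes, cKO MTAL the lowest for 10 and cKO CTAL for 3.

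The count of mitochondrial genes rested on few pools. It was 0 without cKO MTAL 20, 2 without WT MTAL 19, 3 without WT MTAL 15 and 10 without WT MTAL 13, while 3.85%, 4.59%, 4.23% and 6.57% of all genes were called. mt-Nd2 and mt-Atp8 were called without any single pool other than cKO MTAL 20. cKO MTAL 20 also had the highest sum of principal cell markers of the 18 pools (946 CPM, against 51.0 to 306 CPM in the other MTAL pools), and the part of this in the result was not tested. On TPM, in which the genes of a pool share a fixed total, limma called none of the 13, with 2.63% of all genes called. The summed mitochondrial level was lower in cKO MTAL on each scale, with a log2 ratio of -0.44 in TPM, -0.66 in CPM and -0.64 in TPM rescaled without the mitochondrial genes. The within-group SD of the TPM sum was 0.17 on the log2 scale.

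Of the 5 WT MTAL pools, the 4 with Xist had a mitochondrial sum of 186173 to 252353 CPM and the 1 without had 136490 CPM. The cKO MTAL pools, none of which had Xist, stood at 98827 to 132456 CPM. With a term for Xist in a fit of all 18 pools, added after the data were seen, 1 of 13 mitochondrial genes was called (mt-Co3, log2 -0.51, adjusted p = 0.0484), with 9.11% of all genes called. The same fit without the term called 17.1% of all genes, kept each mitochondrial call of the main test and added mt-Nd4 (adjusted p = 0.0294). With the term, the other mitochondrial genes called in the main test had log2 fold changes from -0.67 (mt-Nd3) to -0.34 (mt-Atp6). In this segment Xist and genotype are thus nearly confounded, and their parts cannot be told apart.

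Markers of other cells and states moved between the same groups. The summed level of 6 endothelial markers was 103 to 145 CPM in cKO MTAL and 170 to 282 CPM in WT MTAL, with 3 of 6 called lower. That of 7 injury markers was 2141 to 8340 against 1167 to 1406 CPM, with 3 of the 5 tested called higher. The 10 proximal tubule markers summed to 37.3 to 165 against 29.5 to 46.9 CPM, with 2 of the 4 tested called higher, and 5 thin limb markers to 702 to 772 against 816 to 1101 CPM, with 1 of 5 higher and 1 lower. Of 6 intercalated cell markers 1 of the 5 tested was higher, Atp6v0d2 (log2 1.86, adjusted p = 0.0381), and of 6 fibroblast and pericyte markers 1 of the 4 tested, Acta2 (log2 1.22, adjusted p = 0.0114). The 6 TAL markers summed to 67603 to 78293 CPM in cKO MTAL and 49692 to 62560 in WT MTAL, with 2 of 6 called higher. No marker of these lists was at 0 in all pools. In pools of tubules, fewer cells of a type and less RNA per cell cannot be told apart, and the part of these markers in the mitochondrial result was not tested. Nor was the part of the nephrocalcinosis that the paper reports in the outer medulla of cKO mice.

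Near-identical copies of mitochondrial genes lie in the nuclear genome, and they took many of the counts. In transcripts of the GENCODE M21 annotation, 9 of the 13 mitochondrial members shared at least 10% of their 31-base words with a nuclear pseudogene, 11 pseudogenes in all. A block of 7 copies lies at chr1:24611535-24616197 on the minus strand. It holds Gm28437 (99.9% of the words of mt-Co3), Gm28661 (99.5% of mt-Co2), Gm10925 (99.5% of mt-Atp6), Gm10222 (98.9% of mt-Nd4l), Gm28438 (98.1% of mt-Nd3), Gm28439 (62.8% of mt-Nd4) and Gm29216 (29.6% of mt-Co1). Of the counts of mt-Co3 and its copy together, 33.6% to 49.3% were assigned to the copy, depending on the pool. For mt-Atp6 this was 38.7% to 53.3%, for mt-Nd4l 36.8% to 69.6% and for mt-Nd3 34.7% to 84.9%. The level of such a gene, and above all that of mt-Nd3, thus depends on how reads were divided, which the methods do not state.

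The counts of the copies were therefore added to their mitochondrial gene and the fit was repeated, an alternative chosen after the data were seen. In cKO MTAL against WT MTAL, 9 of 13 mitochondrial genes were then called lower, with 7.05% of all genes called. mt-Nd4l (log2 -0.74, adjusted p = 0.0182) and mt-Nd4 (log2 -0.68, adjusted p = 0.0487) joined the 7. The fold change of mt-Nd3 became smaller and more precise (log2 -0.93, SE 0.15, adjusted p = 0.0013). mt-Co3 (log2 -0.75, adjusted p = 0.0032) and mt-Atp6 (log2 -0.75, adjusted p = 0.0072) stayed close to their first values. The 4 genes without copies were mt-Nd1, mt-Nd6, mt-Cytb and mt-Atp8, and 3 of them were called with and without the change.

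**Figure D3:**
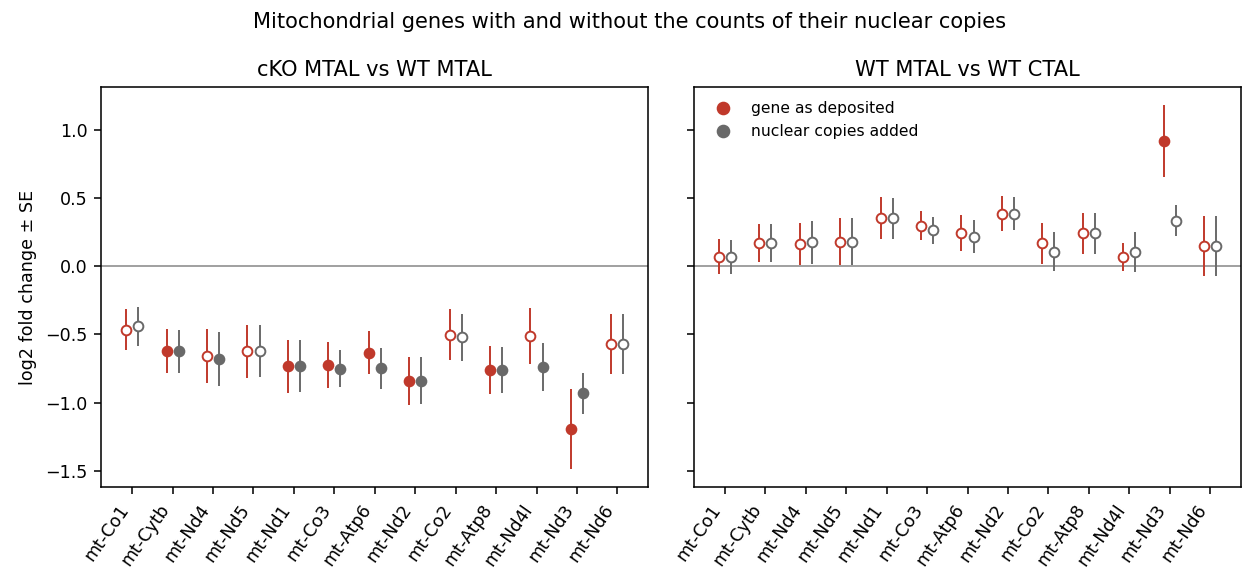
Log2 fold change ± SE of each mitochondrial gene with its deposited counts (red) and with the counts of its nuclear copies added (grey), for cKO MTAL against WT MTAL (left) and WT MTAL against WT CTAL (right). Filled points have an adjusted p under 0.05, and mt-Nd3 is the gene that moves most, from -1.19 to -0.93 on the left and from 0.92 to 0.33 on the right.

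Among the nuclear members of cKO MTAL and WT MTAL, 74 of 81 fold changes lay within 1.2-fold and 80 within 1.5-fold, with a median SE of 0.13 on the log2 scale. In complex I, none of the 7 core subunits and none of the 30 accessory subunits tested was called (median log2 -0.09 and -0.03). None was called among 4 of complex II, 9 of complex III and 17 of complex V, where the medians were -0.12, 0.06 and -0.12. In complex IV 1 of 14 was called (median -0.09). The summed nuclear level had a log2 ratio of 0.08 in TPM, -0.13 in CPM and -0.12 in rescaled TPM, so that its sign depended on the scale.

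Cox7a1 encodes a subunit of complex IV known as the form of heart and skeletal muscle, while Cox7a2 encodes the form found in most tissues. Cox7a1 stood at 22.3, 16.1, 20.1, 12.6 and 14.5 CPM in the WT MTAL pools and at 6.76, 6.36 and 3.71 CPM in the cKO MTAL pools. The groups did not overlap, and Cox7a1 was 2.94-fold lower in cKO MTAL (log2 -1.56, SE 0.30, adjusted p = 0.0062). The log2 fold change stayed between -1.73 and -1.33 when each pool was left out in turn, with a largest adjusted p of 0.0255, and with the term for Xist it was -1.35 (adjusted p = 0.0118). Its level is low for a member, 76.9 ± 20.8 TPM in WT MTAL and 28.2 ± 9.02 TPM in cKO MTAL, beside 579 ± 98.0 and 640 ± 116 TPM of Cox7a2. Of the TPM of both forms, Cox7a1 held a median of 10.4% in WT MTAL (9.96% to 14.1%), 4.68% in cKO MTAL (2.36% to 6.20%), 7.94% in WT CTAL (6.27% to 10.1%) and 5.14% in cKO CTAL (4.17% to 5.80%). Its promoter window, shown above, held none of the 3 motifs, and neither did that of Cox7a2.

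**Figure D4:**
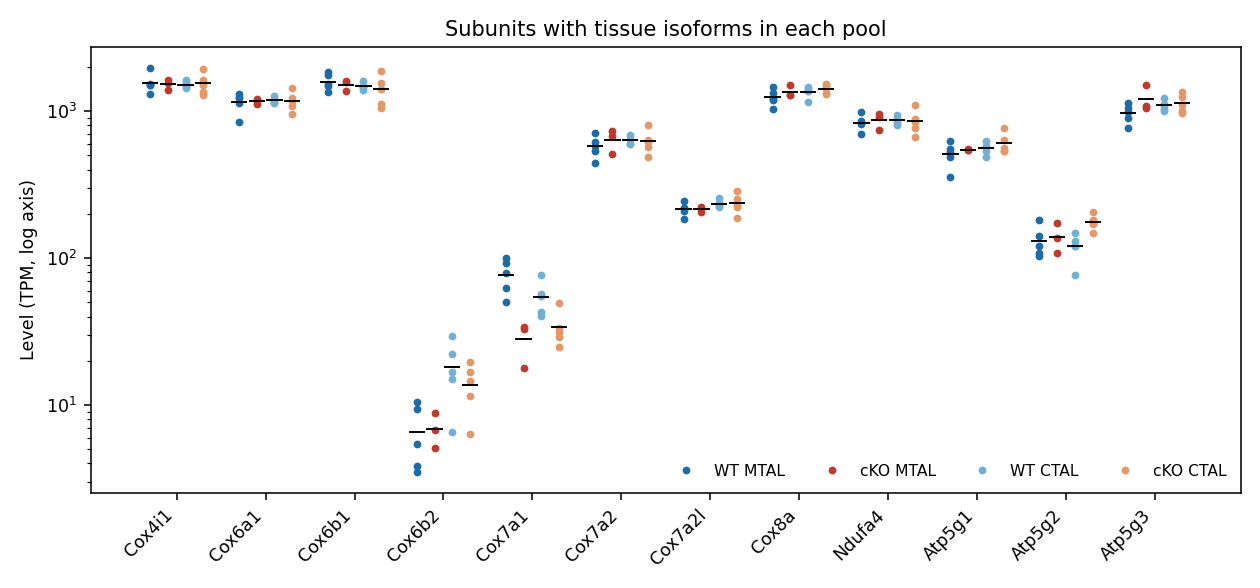
Level of the subunits with several forms (TPM, log axis) in each pool, coloured by group, with bars at the group means. Cox7a1 stands lower in the cKO groups (28.2 TPM in cKO MTAL against 76.9 in WT MTAL) and Cox6b2 lower in MTAL (6.52 TPM in WT MTAL against 18.1 in WT CTAL), while the main forms lie close together.

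The other nuclear members that came nearest to the threshold were small changes in both directions. At an unadjusted p under 0.05, 8 of 81 would be called, against 23.6% of all genes. Sdhc, a membrane anchor of complex II, stood at 212, 185, 163, 162 and 165 CPM in WT MTAL and at 217, 190 and 235 CPM in cKO MTAL (log2 0.32, SE 0.12, adjusted p = 0.125). Sdhb, the iron-sulfur subunit of the same complex, had the opposite sign, with 255 ± 26.2 CPM in cKO MTAL (n = 3) and 318 ± 31.2 in WT MTAL (n = 5; log2 -0.27, adjusted p = 0.197). Ndufb5, an accessory subunit of complex I, stood at 82.6 ± 14.6 against 109 ± 10.3 CPM (log2 -0.35, adjusted p = 0.128). Atp5b stood at 3749, 3737, 3575, 3294 and 3940 CPM in WT MTAL and at 3017, 2719 and 3224 CPM in cKO MTAL (log2 -0.24, SE 0.11, adjusted p = 0.196). It was among 7 nuclear members that were lower in every cKO MTAL pool than in any WT MTAL pool, with Atp5a1, Uqcrc2, Ndufs3, Ndufa9, Ndufb5 and Cox7a1. That is 7 of 81, beside 9.41% of all genes.

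The highest nuclear members of the other complexes overlapped between the groups. Sdha stood at 968 ± 60.7 CPM in WT MTAL and 883 ± 40.2 in cKO MTAL (log2 -0.08, SE 0.10), Uqcrh at 335 ± 41.8 and 329 ± 58.2 (log2 0.02, SE 0.14), Ndufb9 at 376 ± 27.0 and 370 ± 78.7 (log2 0.03, SE 0.13) and Cox6b1 at 470 ± 41.6 and 421 ± 56.9 (log2 -0.10, SE 0.12). None had an adjusted p under 0.65. The 3 genes of subunit c, the rotor ring of complex V, were not called either, with log2 fold changes of -0.05 (Atp5g1), -0.11 (Atp5g2) and 0.15 (Atp5g3).

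**Figure D5:**
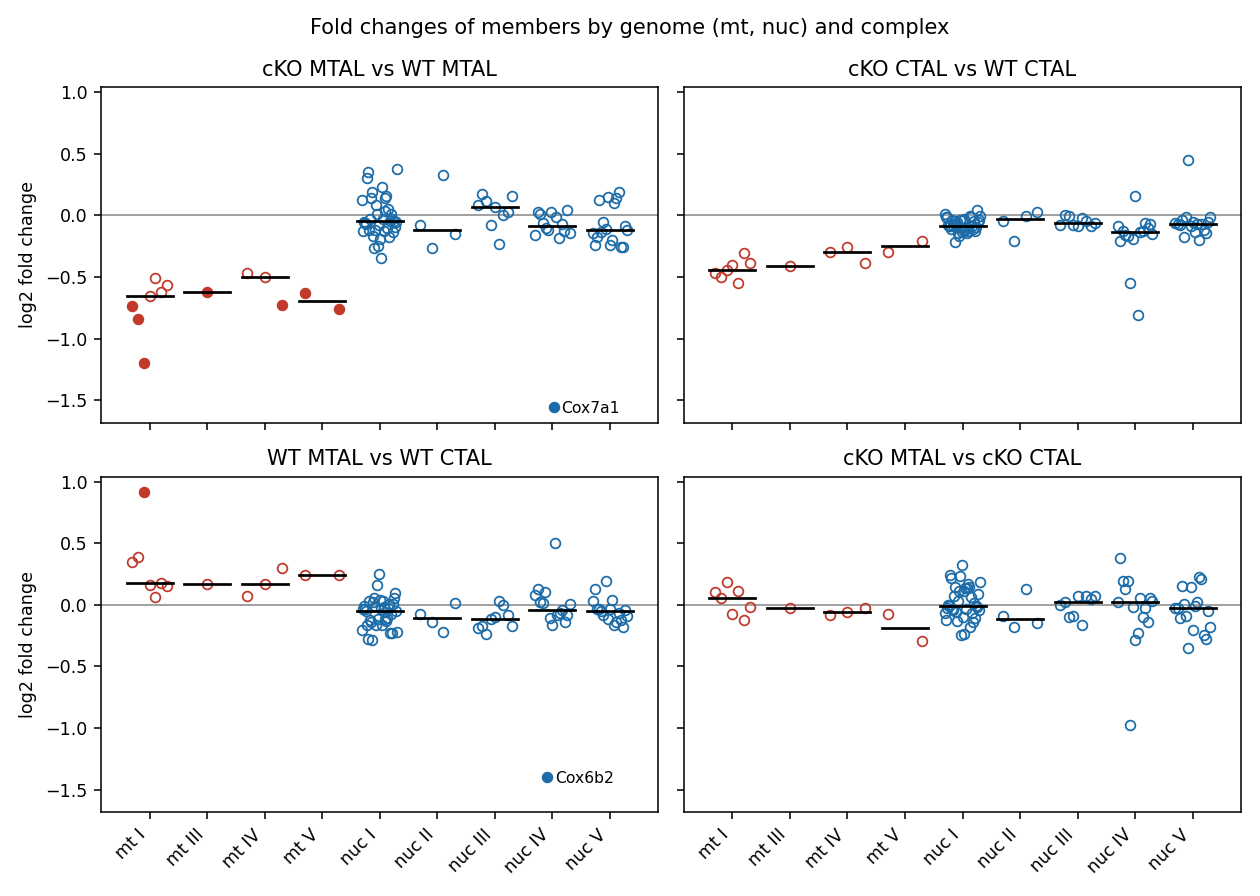
Log2 fold change of each member tested, by genome (mt, mitochondrial; nuc, nuclear) and complex, in the 4 comparisons, with bars at the medians. Filled points have an adjusted p under 0.05. In cKO MTAL against WT MTAL the mitochondrial genes lie between -1.19 and -0.46 and the nuclear ones around 0, apart from Cox7a1.

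The same question was asked of the cortical segment. Neither genome had a called member in cKO CTAL against WT CTAL, with 0 of 82 nuclear and 0 of 13 mitochondrial members, beside 1.22% of 11702 genes. At an unadjusted p under 0.05 the counts would be 5 and 7, beside 11.8% of all genes. The likelihood ratio test of DESeq2 called 2 nuclear members, Cox7a1 lower and Atp5g2 higher, and 3 mitochondrial genes lower, mt-Nd1, mt-Nd2 and mt-Co3, with 3.08% of all genes called by that test. The median log2 fold change was -0.38 over the mitochondrial genes, all 13 of them negative, and -0.08 over the nuclear members.

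The member nearest to the threshold was mt-Co3, at 12122, 13616, 11544, 11155 and 12214 CPM in the WT CTAL pools (1, 3, 8, 10 and 22). In the cKO CTAL pools (2, 4, 7, 9 and 21) it stood at 10688, 9399, 9870, 8265 and 8631 CPM. The groups did not overlap (log2 -0.38, SE 0.10, adjusted p = 0.0780). mt-Nd2 did not overlap either, at 10844 ± 753 CPM in WT CTAL and 7736 ± 1885 in cKO CTAL (log2 -0.50, SE 0.15, adjusted p = 0.132). These were the 2 mitochondrial genes that were lower in every cKO CTAL pool, as were 1.23% of all genes. The mitochondrial sums were 162175, 163076, 191364, 145838 and 171465 CPM in WT CTAL and 157250, 123059, 154085, 89947 and 132103 CPM in cKO CTAL, and they overlapped.

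Cox7a1 stood at 8.53, 12.3, 9.57, 11.1 and 18.6 CPM in WT CTAL and at 6.19, 6.70, 5.46, 9.25 and 6.80 CPM in cKO CTAL (log2 -0.81, SE 0.22, adjusted p = 0.0978). Only cKO CTAL 9 lay within the range of WT CTAL. Atp5g2 stood at 38.5, 46.5, 42.0, 38.5 and 28.8 CPM in WT CTAL and at 53.3, 60.7, 47.2, 49.5 and 55.7 CPM in cKO CTAL (log2 0.45, SE 0.12, adjusted p = 0.0940). It was the only nuclear member whose groups did not overlap, beside 1.9% of all genes that were higher in every cKO CTAL pool, and 40.2% of its words are found in other genes, so that its level is uncertain. The other nuclear members differed little, with 79 of 82 within 1.2-fold. Of the marker lists, 5 of 7 immediate early genes, which respond quickly to stimuli, were called lower in cKO CTAL (sum of 660 to 995 CPM, against 960 to 2142 in WT CTAL), and 1 injury marker and 1 intercalated cell marker higher. The part of these in the values above was not tested.

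Whether the genotype effect differed between the segments was tested as an interaction. No member was called by edgeR or by DESeq2, 0 of 82 nuclear and 0 of 13 mitochondrial, beside 0.286% of 12586 genes, and 5 and 1 would be called at an unadjusted p under 0.05, beside 14.7% of all genes. A fall in MTAL that was not called in CTAL is therefore not shown to be particular to MTAL. The median difference was -0.28 over the mitochondrial genes, and that of Cox7a1 was -0.76 (SE 0.36, adjusted p = 0.325). The genotype comparisons share no pools, whereas each of the segment comparisons below shares its groups with them.

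Both segments were then compared within a genotype. In WT MTAL against WT CTAL 1 mitochondrial gene was higher, mt-Nd3, and 1 nuclear member was lower, Cox6b2, beside 6.87% of 11650 genes (2.76% higher, 4.1% lower). All 13 mitochondrial genes had a positive fold change, with a median of 0.18, and the nuclear median was -0.06, with 0.02 over all genes. At an unadjusted p under 0.05 the counts would be 4 mitochondrial and 10 nuclear members, beside 19.1% of all genes. Between the same groups 2 of 4 thin limb markers tested were higher in WT MTAL (sum of 816 to 1101 CPM, against 464 to 737 in WT CTAL) and 3 of 6 TAL markers were lower (49692 to 62560 against 84731 to 95745 CPM), as were 2 immune cell markers, 1 principal cell marker and 1 injury marker. Their part was not tested.

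mt-Nd3 stood at 444, 906, 470, 485 and 546 CPM in WT CTAL, beside the values for WT MTAL given above. The groups overlapped because of WT CTAL 3, and the gene was 1.89-fold higher in WT MTAL (log2 0.92, SE 0.26, adjusted p = 0.0465). With its nuclear copy added the log2 fold change was 0.33 (SE 0.12, adjusted p = 0.105). mt-Nd2 was the next, with 14271 ± 3015 CPM in WT MTAL and 10844 ± 753 in WT CTAL (n = 5 each; log2 0.38, adjusted p = 0.0870). With the likelihood ratio test of DESeq2, which called 9.17% of all genes, mt-Nd3 did not pass (adjusted p = 0.131). By that test mt-Nd2 (adjusted p = 0.020) and mt-Co3 (adjusted p = 0.038) were called.

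Cox6b2, the testis form of a subunit that faces the intermembrane space, stood at 1.52, 0.887, 1.06, 3.27 and 2.95 CPM in WT MTAL. In WT CTAL it stood at 4.09, 2.07, 6.01, 4.61 and 8.35 CPM. The groups overlapped, and the gene was 2.63-fold lower in WT MTAL (log2 -1.40, SE 0.41, adjusted p = 0.0496). It held only 0.188% to 1.96% of the TPM of Cox6b1 and Cox6b2 together in the WT pools. Both calls depended on single pools. That of mt-Nd3 was lost without WT CTAL 1, 8, 10 or 22 and without WT MTAL 11, 15 or 19. Cox6b2 no longer passed the test without WT MTAL 11, 13 or 15, and it failed the filter on low counts without WT CTAL 1, 8, 10 or 22 or WT MTAL 17, so that it was then not tested. In all, the counts ranged from 0 to 4 mitochondrial genes, with 4 without WT MTAL 13 (mt-Nd1, mt-Nd2, mt-Co3 and mt-Nd3), and from 0 to 2 nuclear members, while 4.67% to 6.78% of all genes were called. Ndufa3, an accessory subunit of complex I, was lower in every WT MTAL pool (57.0 ± 4.55 CPM) than in any WT CTAL pool (68.4 ± 1.90; log2 -0.27, SE 0.08, adjusted p = 0.0570), as were 4.09% of all genes.

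In cKO MTAL against cKO CTAL no member was called by edgeR or by DESeq2, 0 of 82 nuclear and 0 of 13 mitochondrial, beside 1.75% of 12044 genes, and at an unadjusted p under 0.05 the counts would be 2 and 0, beside 17.7% of all genes. The median log2 fold change was -0.03 over the mitochondrial genes and -0.01 over the nuclear members. Cox6b2, which passed the filter only through cKO CTAL, stood at 1.70 ± 0.419 CPM in cKO MTAL (n = 3) and 3.50 ± 0.978 in cKO CTAL (n = 5). Of the marker lists, 7 of 7 immediate early genes and 3 of 5 thin limb markers were called higher in cKO MTAL and 1 TAL marker lower, and their part was not tested.

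Genes that act on the respiratory chain were read from 4 lists, which were drawn up with earlier results of these data known. In cKO MTAL against WT MTAL, where 4.44% of all genes were called higher and 2.57% lower, none of 46 assembly factors was called. Of 26 genes tested that serve the transcription, processing and replication of mitochondrial DNA, 1 fell, Lrpprc, which stabilises mitochondrial mRNAs. It stood at 61.5 to 85.5 CPM in cKO MTAL and at 96.5 to 120 CPM in WT MTAL (log2 -0.49, SE 0.13, adjusted p = 0.0354). Tfam, the transcription factor that packs mitochondrial DNA, had a log2 fold change of 0.08 (SE 0.28, adjusted p = 0.893).

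Of 19 regulators of mitochondrial biogenesis, 4 fell and none rose, beside the 2.57% of all genes that fell. The median log2 fold change was -0.17 over the 19 and 0.00 over all genes. Ppargc1a, the coactivator PGC-1alpha, stood at 224 to 313 CPM in cKO MTAL and at 358 to 553 CPM in WT MTAL (log2 -0.65, SE 0.15, adjusted p = 0.0167). Gabpb2, a partner of the ETS factor GABPA, stood at 58.6 to 61.4 against 96.1 to 141 CPM (log2 -0.86, SE 0.14, adjusted p = 0.0021). Ppara, a nuclear receptor for fatty acids, stood at 6.26 to 10.6 against 14.5 to 28.4 CPM (log2 -1.14, SE 0.28, adjusted p = 0.0234). Esrrg, the fourth, is an orphan nuclear receptor (log2 -0.44, SE 0.13, adjusted p = 0.0436). The groups did not overlap for any of the 4, all 4 stayed under 0.05 with the term for Xist, and without single pools the largest adjusted p was 0.0112 for Gabpb2. Without cKO MTAL 20 the adjusted p rose to 0.0870 for Ppargc1a, 0.0874 for Ppara, 0.173 for Esrrg and, in the list above, 0.134 for Lrpprc, and other single pools also ended the calls of Ppara (WT MTAL 15 or 19), Esrrg (cKO MTAL 16, WT MTAL 11, 13, 15 or 19) and Lrpprc (cKO MTAL 16, WT MTAL 11, 15, 17 or 19). On TPM with limma none of these 5 passed, with adjusted p between 0.148 (Ppara) and 0.380 (Lrpprc), and 2.63% of all genes were called.

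Of 24 carriers of electrons, phosphate and nucleotides, 1 rose, Ucp2, a carrier of the inner membrane of the uncoupling protein family. It stood at 143 to 199 CPM in cKO MTAL and at 60.0 to 66.4 CPM in WT MTAL, 2.71-fold higher (log2 1.44, SE 0.12, adjusted p = 7.52e-06). Ucp2 was also higher in cKO CTAL than in WT CTAL, at 74.7 to 109 against 53.3 to 74.3 CPM (log2 0.62, SE 0.11, adjusted p = 0.0112), the only gene of the 4 lists called there. Its genotype effect was larger in MTAL (difference 0.81, SE 0.16, adjusted p = 0.0314), and that of Gabpb2 differed too (difference -0.76, SE 0.16, adjusted p = 0.0457). Without single pools, the adjusted p of these differences reached 0.0581 (without cKO CTAL 4) and 0.0955 (without WT CTAL 1). That of Ucp2 also passed 0.05 without cKO CTAL 9, WT CTAL 8 or WT MTAL 15, and that of Gabpb2 without most of the single pools. With the term for Xist they were 0.0618 for Ucp2 and 0.0635 for Gabpb2, and neither passed with limma (0.252 and 0.365). Between WT MTAL and WT CTAL, Gabpb2 (log2 0.51, adjusted p = 0.0096) and Ppara (log2 0.82, adjusted p = 0.0170, lost without WT CTAL 8) were higher in MTAL, and Ckmt1, the mitochondrial creatine kinase, was lower (log2 -0.48, adjusted p = 0.0089). In cKO MTAL against cKO CTAL only Ucp2 was called (log2 0.89, adjusted p = 0.0041). On TPM with limma the calls between segments of Gabpb2 (adjusted p = 0.193), Ppara (0.101) and Ucp2 (0.162) were lost.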

How the data were processed

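Poly-A RNA of 18 pools was sequenced with paired-end reads from a strand-specific kit. Per the labels and the methods, the authors trimmed the reads and used DRAGEN to map them to mm10 and to quantify gencode genes. They deposited estimated counts without normalization, which were rounded to whole numbers here. The TPM values deposited by the authors are corrected for transcript length. Whether strand was used in counting, and how reads of several genes were assigned, is not given in the sources used here. The study left out 2 cKO MTAL pools after quality control and 1 cKO CTAL pool whose Cldn10 level resembled that of WT CTAL. These pools were not analysed here. According to the paper, cKO kidneys had nephrocalcinosis in the outer medulla, which made MTAL very hard to dissect.

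Each comparison was fitted on its own pools with edgeR (version 4.0.16, R 4.3.3), with TMM factors (0.919 to 1.08), for genes that reached 3 CPM in 5 or more pools (3 or more with cKO MTAL). p-values were adjusted over all genes tested. Levels are CPM on TMM library sizes over 18 pools, or TPM between genes. Lists and sums were described without a test. Nuclear copies were found from shared 31-base words in the transcripts of GENCODE M21. The members and lists were chosen with earlier results of these data known. Values per pool are given for the mitochondrial genes, for called members, for the highest nuclear member of each complex and for subunits with several forms. Other genes named singly were chosen after their values were seen. The scripts were tested on simulated data.

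Alternatives were DESeq2 size factors, the DESeq2 likelihood ratio test (version 1.42.0), limma (version 3.58.1) on log2(TPM + 1), no filter, normalization without mitochondrial genes, 1 fit of all pools, other scales for sums, WT CTAL 1 counted as cKO, and each pool left out in turn. A term for Xist of at least 1 CPM and the addition of nuclear copies were added after the data were seen, since the planned Xist limit of 10 CPM marked no pool.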

Additional observations from a re-analysis of the deposited data

Results flagged for a closer look

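In 93 groups examined (a named member or a genome's sum in 1 group of 5 pools), 7 had a pool that stood apart by the ratio of its gap to the range of the group, where chance gives about 1 in 20. mt-Nd3 stood at 906 CPM in WT CTAL 3, against 444 to 546 CPM in the other 4 pools of WT CTAL. mt-Atp6 stood at 15154 CPM in the same pool, against 10167 to 11424 CPM. Cox4i1, the main form of subunit 4 of complex IV, was also highest in WT CTAL 3, at 832 CPM against 723 to 735 CPM. Atp5b was lowest in cKO CTAL 2, at 3107 CPM against 3211 to 3214 CPM, where the other 4 pools lay close together. Cox7a2l, a factor in the joining of complexes III and IV, was lowest in WT MTAL 15, at 142 CPM against 176 to 188 CPM. Atp5g1 was highest in cKO CTAL 9, at 314 CPM against 244 to 261 CPM. Atp5g3 was highest in WT CTAL 22, at 574 CPM against 475 to 493 CPM.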

How the results depend on the processing

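No called result changed its direction. In cKO MTAL against WT MTAL, the count of mitochondrial genes called was 13 with no filter, 0 with limma on TPM and 1 with the term for Xist (4.62%, 2.63% and 9.11% of all genes were called), and the count of nuclear members was 3 in a fit of all 18 pools (17.1%). The log2 ratio of the mitochondrial sums was -0.66 in CPM and -0.64 in rescaled TPM, and that of the nuclear sums was -0.13 and -0.12, against 0.08 in TPM. In cKO CTAL against WT CTAL, the DESeq2 likelihood ratio test called 2 nuclear members and 3 mitochondrial genes (3.08%). In WT MTAL against WT CTAL, the nuclear count was 2 with the DESeq2 likelihood ratio test and 0 with no filter, with limma and with WT CTAL 1 counted as cKO. The mitochondrial count was 2 with the same test, mt-Nd2 and mt-Co3, while mt-Nd3 did not pass it (adjusted p = 0.131). This count was 0 with limma, with the term for Xist, with WT CTAL 1 counted as cKO and with nuclear copies added. There DESeq2 called 9.17% of all genes, and the others called 2.56% with no filter, 3.88% with limma, 6.33% with the Xist term, 4.67% with WT CTAL 1 as cKO and 6.87% with copies added. With WT CTAL 1 counted as cKO, Cox6b2 did not pass the filter. The other causes were not tested.

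Without single pools, the counts in cKO MTAL against WT MTAL were 0 to 10 mitochondrial genes (0 without cKO MTAL 20) and 1 to 3 nuclear members (3 without cKO MTAL 18). In WT MTAL against WT CTAL they were 0 to 4 and 0 to 2 (2 without WT MTAL 19), and in the test of the difference of genotype effects 0 to 1 nuclear members (1 without cKO MTAL 18). Apart from the pools left out, 166 values of the main results stayed within the limits set for a change and 19, given above, did not. For single genes, 4215 kept their side of the threshold, 23 passed it only under an alternative and 37 lost it. No paired analysis was possible because the groups share no replicate numbers. The 3 cKO MTAL pools, of 13275232 to 19608753 counts, limit the precision of comparisons that hold them.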

Other observations

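The members differed in how much they varied between pools of the same group. The median within-group SD on the log2 scale was 0.32 for the 13 mitochondrial genes and 0.16 for the 82 nuclear members tested, beside 0.25 for 12586 genes tested. Among genes with a mean of at least 100 CPM it was 0.15, over 1653 genes, and 0.15 over the 63 nuclear members at that level. The median SD of the nuclear members was thus that of abundant genes, and that of the mitochondrial genes was higher.

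Of the nuclear members, several share sequence with other genes, so that their levels are uncertain. All words of Ndufb4c, 61.7% of those of Cox6c2 and 45.3% of those of Ndufs6b are found in another gene. Of the 104 members, 10 share over 50% of their words and 58 share 10% or less.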
